A study of Oreochromis mossambicus with 12 samples.

Results

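The joint effect of heat-killed Streptococcus agalactiae and sodium nitrite was read by setting the 3 libraries that received both agents against the 3 libraries that received PBS. These are 6 of the 12 libraries of the series, chosen by their labelled treatment, and each co-treated library was paired with the PBS library of the same replicate number. The cells were leukocytes from tilapia head kidney, labelled Oreochromis mossambicus, kept in primary culture on collagen in medium with tilapia serum and antibiotics. The PBS group received neither agent, the bacteria group received heat-killed S. agalactiae at a multiplicity of infection of 1, the nitrite group received sodium nitrite at 1000 μM, and the co-treated group received both at those doses. All 4 groups were collected after 12 h and had 3 libraries each. The bacteria were dead, so the cells met bacterial material and not a growing infection. Age and sex of the fish are not in the labels, nor is it stated if replicates were separate animals or separate wells, so the p-values here describe the spread of these libraries, possibly a technical one. Of 28921 gene symbols in the deposited table, 12423 averaged 1 FPKM or more across all 12 libraries and were tested.

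In bony fish the head kidney takes the place of bone marrow, and its leukocytes include granulocytes, macrophages, lymphocytes, thrombocytes and their precursors. Phagocytes sense streptococcal lipoproteins and nucleic acids through Toll-like receptors, whose adaptor MyD88 passes the signal to NF-κB and AP-1 factors that switch on cytokine genes and their own inhibitors. Nitrite is taken up by fish across the gill, oxidises the iron of haemoglobin and can be converted in cells to nitric oxide, and glutathione is a main buffer against such oxidants. Gene roles named below were worked out mostly in mouse and human.

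In the co-treated libraries, genes of itaconate synthesis, neutrophil attraction, NF-κB feedback, the vacuolar proton pump and the proteasome were among those that rose. The cyclooxygenase ptgs2 rose too, while the prostaglandin E synthase ptges fell. Genes of eosinophil peroxidase, the macrophage receptor csf1r, granzyme, leukotriene synthesis and matrix receptors were also among those that fell. Values are FPKM (fragment numbers scaled to transcript length and library total) summed over the transcripts of a symbol and given in the order of replicates 1, 2 and 3. Changes are mean paired differences of log2(FPKM + 1), a scale that understates the change of genes with low values. They are given with the standard error (SE) of the limma fit. Its spread is estimated over the libraries of all 4 groups and drawn toward that of other genes. This SE is therefore not the scatter of the 3 paired differences alone. A gene is said to have risen or fallen when its limma p-value, adjusted by Benjamini-Hochberg over all genes tested, was under 0.05. Of the 12423 genes, 6739 (54.2%) changed, 1931 (15.5%) of them upward and 4808 (38.7%) downward. The direction was shared by all 3 pairs in 8267 of the 12423 genes (66.5%) and in 6650 of the 6739 (98.7%), which were selected on those same paired differences, and 612 genes rose and 961 fell by at least 2-fold in every pair. PBS and co-treated libraries did not overlap in 6091 genes (49.0%).

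The median change over all genes was -0.29, so a gene near that value sat at the middle of the distribution. With each library rescaled by the median ratio of its genes this median moved to 0.00, and 3035 genes rose against 3027 that fell. Quantile normalization gave 2525 and 3027. Counts for gene groups are therefore given together with the number that passed in the same direction under all 3 scalings (as deposited, median-ratio and quantile). The first counts are to be read against the 15.5% of all genes that rose and the 38.7% that fell. The share of all genes that passed under all 3 scalings was not counted, so the second counts have no such background. Counts over all genes also moved when the fit was changed. Falls numbered 3437 without the pairing and 3513 without co-treatment replicate 1, against the 4808 above. With only the 6 PBS and co-treated libraries they numbered 2762. PBS replicate 1 stood apart from the other PBS libraries: ribosomal protein genes made up 4.98% of its summed FPKM against 17.6% and 16.4%, and its low values placed it at the smallest relative depth of the 12 libraries. In the co-treated libraries that share ran from 9.52% to 13.2%. Across all genes tested, PBS replicate 1 correlated with PBS replicates 2 and 3 at 0.849 and 0.809, while PBS replicates 2 and 3 correlated at 0.953. In pair 1, 5334 genes differed by 2-fold or more, against 3020 in pair 2 and 2580 in pair 3, so pair 1 weighs heavily in many mean changes. Genes at 1 FPKM or more numbered 11142 to 11730 in the co-treated libraries and 12160 to 12498 in the PBS libraries, ranges that do not overlap (two-sided exact permutation p = 0.1, the smallest that 3 against 3 libraries can give). In such bulk samples, fewer cells of a type and less RNA per cell cannot be told apart.

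The 15 largest rises and 15 largest falls were taken among named genes that passed with no overlap between PBS and co-treated libraries. Lack of overlap was thus a condition of entry for these genes and not a result. The rises were led by acod1, which diverts a citrate cycle intermediate into the antibacterial metabolite itaconate. It stood at 0.31, 0.47 and 1.46 FPKM with PBS and at 852, 441 and 593 with both agents, a log2 change of 8.50 ± 0.34 (limma adjusted p = 4.01e-07). Every co-treated library lay far above every PBS library. il-8, the chemokine that draws neutrophils, went from 2.02, 8.72 and 18.6 to 3297, 2305 and 1464 FPKM, a change of 8.07 ± 0.67. The lowest PBS value and the highest co-treated value of il-8 were both in replicate 1, so its paired differences were spread more widely than those of acod1. slco2a1, a prostaglandin transporter, was measured at 0.12, 3.05 and 4.80 FPKM and then at 542, 419 and 436, a change of 7.29 ± 0.66. tp53i3, a quinone reductase first known as a p53 target, changed by 6.93 ± 0.46 from 9.48, 3.19 and 22.9 to 1622, 999.6 and 1176 FPKM. Both genes had co-treated libraries within a narrow range and PBS libraries that were spread.

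Several further genes of this group were near 0 in the PBS libraries. suox, the mitochondrial sulfite oxidase that carries a molybdenum cofactor, rose from 0.03, 0.18 and 0.66 to 66.1, 53.2 and 76.5 FPKM (5.70 ± 0.21). ptx3, a secreted pattern recognition protein, was nearly identical in the 3 co-treated libraries, at 74.8, 71.6 and 71.7 FPKM against 1.01, 1.45 and 1.30 with PBS (5.04 ± 0.16). fabp7, a fatty acid binding protein, was the least even, with 0, 0.32 and 4.89 FPKM in the PBS libraries and 23.0, 100.3 and 146 in the co-treated ones (5.16 ± 0.36). It was lowest in replicate 1 and highest in replicate 3 of both groups. lacc1, a macrophage enzyme of purine metabolism, rose by 4.46 ± 0.25, and flt1, a receptor for vascular endothelial growth factor, by 4.75 ± 0.32. The others were the secreted protein crispld2 (6.52 ± 0.21), the axon guidance protein draxin (6.10 ± 0.17), abtb2 (4.99 ± 0.38), kctd12 (4.97 ± 0.27), the mitochondrial protein echdc2 (4.85 ± 0.34) and the actin-filament formin inf2 (4.74 ± 0.40).

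Eosinophil peroxidase, epx, the granule enzyme of eosinophils, had the largest fall of a named gene. It stood at 4714, 6764 and 6381 FPKM with PBS and at 156, 70.4 and 52.9 FPKM with both agents, a change of -6.12 ± 0.33 (limma adjusted p = 1.85e-06). The highest co-treated library remained far under the lowest PBS library. granzyme, a serine protease of cytotoxic granules, fell from 1957, 623 and 951 to 69.8, 22.2 and 66.7 FPKM (-4.45 ± 0.30). csf1r, the receptor through which macrophages are kept alive, fell from 71.2, 57.8 and 19.9 to 1.93, 2.35 and 0.76 FPKM (-4.11 ± 0.30). In both of these, PBS replicate 1 held the highest value. 

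Surface and secreted proteins filled much of the rest of this group. entpd1, the ectoenzyme that removes phosphates from extracellular ATP, went from 163, 148 and 40.9 to 2.64, 5.87 and 1.99 FPKM (-4.58 ± 0.37), and itga6, a laminin-binding integrin, from 49.1, 26.2 and 5.88 to 0.22, 0.42 and 0.18 (-4.05 ± 0.52). Both were lowest in replicate 3 of the PBS libraries. lpl, lipoprotein lipase, fell (-3.70 ± 0.43) from 442, 692 and 887 to 22.0, 47.6 and 109.6 FPKM and kept the same order of replicates in both groups. selenop, the selenium carrier in plasma, fell (-3.38 ± 0.18) from 526, 519 and 289 to 48.2, 48.3 and 28.1 FPKM. The remaining falls were lrrc19 (-5.32 ± 0.52), the matrix protein tinagl1 (-4.54 ± 0.22), the endoplasmic reticulum protein rtn1 (-4.03 ± 0.38), the apolipoprotein apoa4 (-4.01 ± 0.38), the actin-binding ablim1 (-3.68 ± 0.27), the orphan receptor gpr141 (-3.52 ± 0.31), the basement membrane proteoglycan hspg2 (-3.42 ± 0.36) and pitpnm3 (-3.35 ± 0.34). All 30 of these rises and falls were called in the same direction in each of the 22 alternatives. They were chosen as the largest called changes, and the alternatives refit mostly the same libraries, so that agreement is no separate support. Among LOC identifiers, for which the table gives no gene name, the largest rises were LOC100695399 (log2 change 7.46) and LOC100703315 (7.37).

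**Figure D1:**
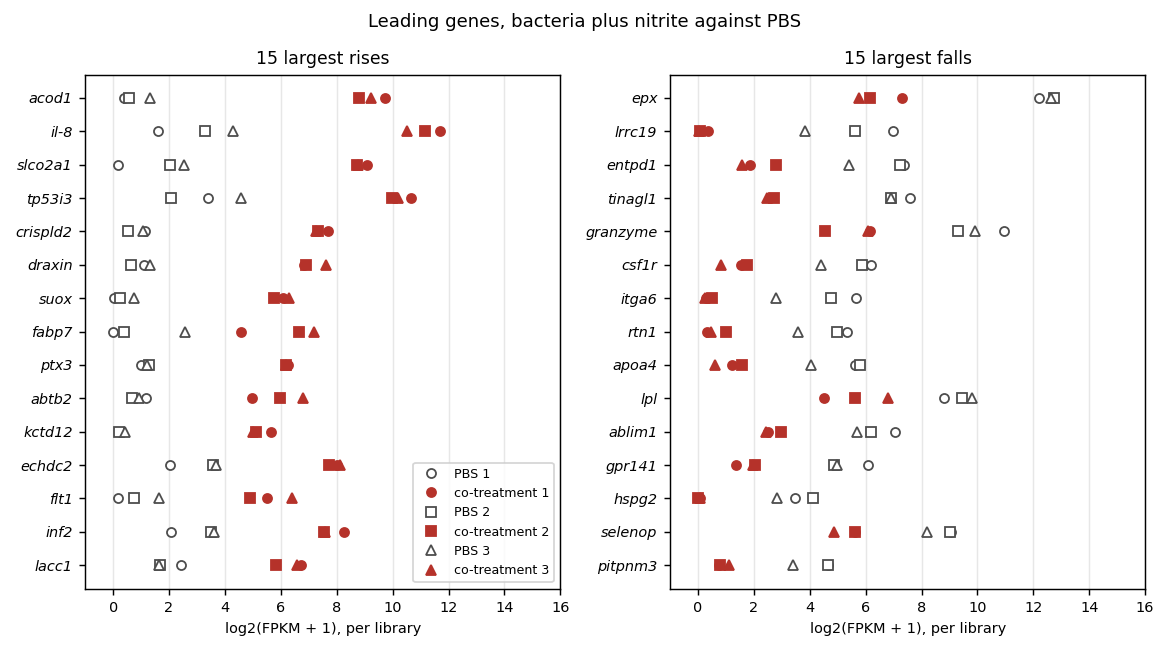
Level of the 15 largest rises (left) and 15 largest falls (right) among named genes, one row per gene. The x axis is log2(FPKM + 1), open symbols are PBS libraries, filled symbols are co-treated libraries, and the symbol shape gives the replicate number. Genes were chosen among those without overlap of the groups, so open and filled symbols are apart in every row by selection. The rows run from acod1 (8.50) to lacc1 (4.46) on the left and from epx (-6.12) to pitpnm3 (-3.35) on the right.

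Receptors that recognise bacteria and their adaptors moved in both directions. Their list and those below were written with earlier results of these data known, and some hold genes from the largest changes above. List counts beside the shares of all genes are therefore descriptions and not tests. Of 28 tested members of this list, 11 rose (39.3%, against 15.5% of all genes) and 8 fell (28.6%, under the 38.7% of all genes). The other 9 did not pass, and 11 and 3 passed under all 3 scalings, with a median of 0.12 against -0.29 over all genes. tlr5, the flagellin receptor, fell from 226, 74.9 and 34.5 to 23.4, 11.9 and 4.33 FPKM, a change of -2.84 ± 0.19. Its PBS values were themselves spread, and in both groups replicate 1 was highest and replicate 3 lowest, with no overlap between the groups. The adaptor myd88 rose from 66.5, 96.3 and 122 to 348, 311 and 276 FPKM (1.74 ± 0.23), and its kinase partner irak1 from 11.3, 11.5 and 12.9 to 68.3, 77.7 and 55.6 FPKM (2.39 ± 0.16). ripk2, the kinase behind the NOD receptors, rose from 30.7, 30.6 and 31.7 to 131, 98.7 and 171 FPKM (2.04 ± 0.19). In these 3 genes the groups were apart in every library. nod2 (1.22), which senses peptidoglycan, and card9 (2.70), an adaptor of lectin receptors, rose. tlr3 (-1.76), a sensor of double-stranded RNA, and marco (-0.71), a scavenger receptor for bacteria, fell, while the RNA sensor dhx58 (0.02 ± 0.24) did not pass the test. Without co-treatment replicate 1, without co-treatment replicate 2 or without the pairing, 5 members fell. With only the 6 PBS and co-treated libraries 3 fell.

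Of 10 tested inhibitors that NF-κB induces against itself, 5 rose, against 15.5% of all genes, all 5 under the 3 scalings. The other 5 did not pass, and none fell (median 1.05). tnfaip3, the deubiquitinase A20, went from 19.1, 15.7 and 23.3 to 215, 174 and 158 FPKM (3.17 ± 0.20). tnip1 and tnip2, which bind A20, rose by 2.04 ± 0.14 and 3.12 ± 0.24, and the PBS values of tnip1 were almost the same in the 3 libraries (72.9, 72.7 and 73.7 FPKM). nfkbia, the inhibitor IκBα, went from 5.20, 37.0 and 33.0 to 108, 90.9 and 76.1 FPKM (2.20 ± 0.55). Its PBS replicate 1 lay far under replicates 2 and 3, and without that library the change was 1.24. nfkbie, another such inhibitor, rose by 1.84 ± 0.34, and the deubiquitinase cyld did not pass (-0.12 ± 0.15).

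Among the NF-κB and AP-1 factors themselves 11 of 20 rose, 11 of them under all 3 scalings, and 3 fell, 1 of them under all 3. fosl1, an AP-1 subunit of the Fos family, went from 3.31, 5.83 and 8.23 to 79.7, 117 and 52.7 FPKM (3.63 ± 0.36), and jund, its Jun partner, from 2.60, 4.48 and 4.61 to 52.7, 55.6 and 62.7 FPKM (3.59 ± 0.14). The jund values within each group differed little, whereas fosl1 was highest in co-treatment replicate 2. The precursor subunit nfkb2 (2.42) and relb (1.10), the pair of the non-canonical pathway, rose, nfkb2 without passing when co-treatment replicate 1 was left out (2.05). So did rel (0.97), nfkb1 (0.94), the activated-lymphocyte factor batf (1.46) and bcl3 (1.51), a nuclear partner of p50. The myeloid factors cebpd (-1.30) and mafb (-1.11) fell, and fosl2 (-0.09 ± 0.19) did not pass.

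Of 13 symbols matched to the list of cytokines and their receptors, 11 passed the filter on low values, and the list was split. 3 of 11 rose and 6 fell, and these 3 and 6 passed under all 3 scalings, with a median of -0.92. il12b, a subunit of interleukins 12 and 23, went from 0.33, 0.17 and 0.45 to 26.9, 18.7 and 37.1 FPKM (4.39 ± 0.17), so it was under 1 FPKM in all PBS libraries. il10, an anti-inflammatory cytokine, went from 0.64, 1.09 and 0.83 to 2.19, 3.21 and 2.32 FPKM (0.94 ± 0.22), and its groups did not overlap. tnfsf13b, the B cell survival factor BAFF, fell from 105, 58.4 and 61.6 to 26.4, 22.2 and 22.1 FPKM (-1.58 ± 0.16). il1rap, the accessory chain of the interleukin 1 receptor, fell (-1.46 ± 0.12), and il34 (-1.03), the second ligand of csf1r, fell too.

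The chemokine list held il-8 and 4 receptors, and the 4 receptors fell, 3 of them under all 3 scalings. cxcr4, which holds cells in blood-forming tissue, went from 1242, 600.4 and 327 to 235, 174 and 172 FPKM (-1.70 ± 0.28). cxcr5, a receptor of B cells, went from 15.6, 12.4 and 8.09 to 2.46, 4.15 and 1.90 FPKM (-1.76 ± 0.23). The groups did not overlap in either. cmklr1, a receptor for chemerin on macrophages, fell from 443, 138 and 129.8 to 54.1, 43.0 and 108 FPKM (-1.64 ± 0.48), and ccr7, which guides cells to lymphoid tissue, fell (-0.40 ± 0.15) with overlapping groups and passed in no alternative that left out a library other than PBS replicate 3. Without PBS replicate 1, co-treatment replicate 1 or co-treatment replicate 2, 2 of the 4 falls passed.

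In the interferon response list 7 of 13 tested genes rose (53.8%, against 15.5% of all genes), all 7 under the 3 scalings. The other 6 did not pass, and none fell (median 1.11). socs1, which shuts down JAK kinases, went from 4.39, 9.10 and 11.4 to 46.3, 43.3 and 142 FPKM (2.93 ± 0.24), with the highest value in co-treatment replicate 3. irf7, which amplifies interferon production, rose from 18.0, 10.1 and 9.36 to 34.5, 22.7 and 41.3 FPKM (1.34 ± 0.22). In both genes the co-treated libraries lay above the PBS libraries. xaf1 (1.58), ifi35 (1.32), irf9 (0.64) and samhd1 (0.65) also rose. adar, an RNA editing enzyme, changed by -0.13 ± 0.18 and did not pass. Of the related JAK-STAT list, 5 of 16 rose and 2 fell, 4 and 0 under all 3 scalings. There socs3, the inhibitor of interleukin 6 signalling, went from 19.1, 41.9 and 77.4 to 202, 198 and 243 FPKM (2.40 ± 0.42), and the phosphatase ptpn6 rose by 1.45 ± 0.23. Without co-treatment replicate 1, no member of it fell.

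cd83, a surface protein of mature dendritic cells, was the largest rise among antigen presentation genes, from 35.3, 25.0 and 30.2 to 405, 419 and 461 FPKM (3.80 ± 0.19). tap1, the peptide transporter of class I presentation, rose by 1.43 ± 0.16 and tapbpl, a peptide editor, by 1.17 ± 0.14, whereas cd74, the invariant chain of class II, fell from 795, 1420.3 and 783 to 398, 487 and 541 FPKM (-1.02 ± 0.29). These 3 rises, of 10 tested, passed under all 3 scalings. The fall of cd74 did not. With it 2 members fell, against 4 without PBS replicate 1 and 0 without PBS replicate 2 or co-treatment replicate 1, and cd74 did not pass without co-treatment replicate 2 either (-0.85). The class II regulator ciita changed by -0.02 ± 0.26 and did not pass.

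Of 17 MAP kinases and their phosphatases, 6 rose and 5 fell, 6 and 4 under all 3 scalings. The phosphatases dusp16 and dusp7, which switch MAP kinases off, rose by 2.42 ± 0.23 and 0.76 ± 0.12. dusp16, which acts on JNK and p38, went from 16.2, 30.3 and 28.0 to 152, 121 and 128 FPKM. Its groups did not overlap. map3k4 and map3k3, upstream kinases of p38 and JNK, fell (-1.93 ± 0.20 and -0.93 ± 0.12).

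**Figure D2:**
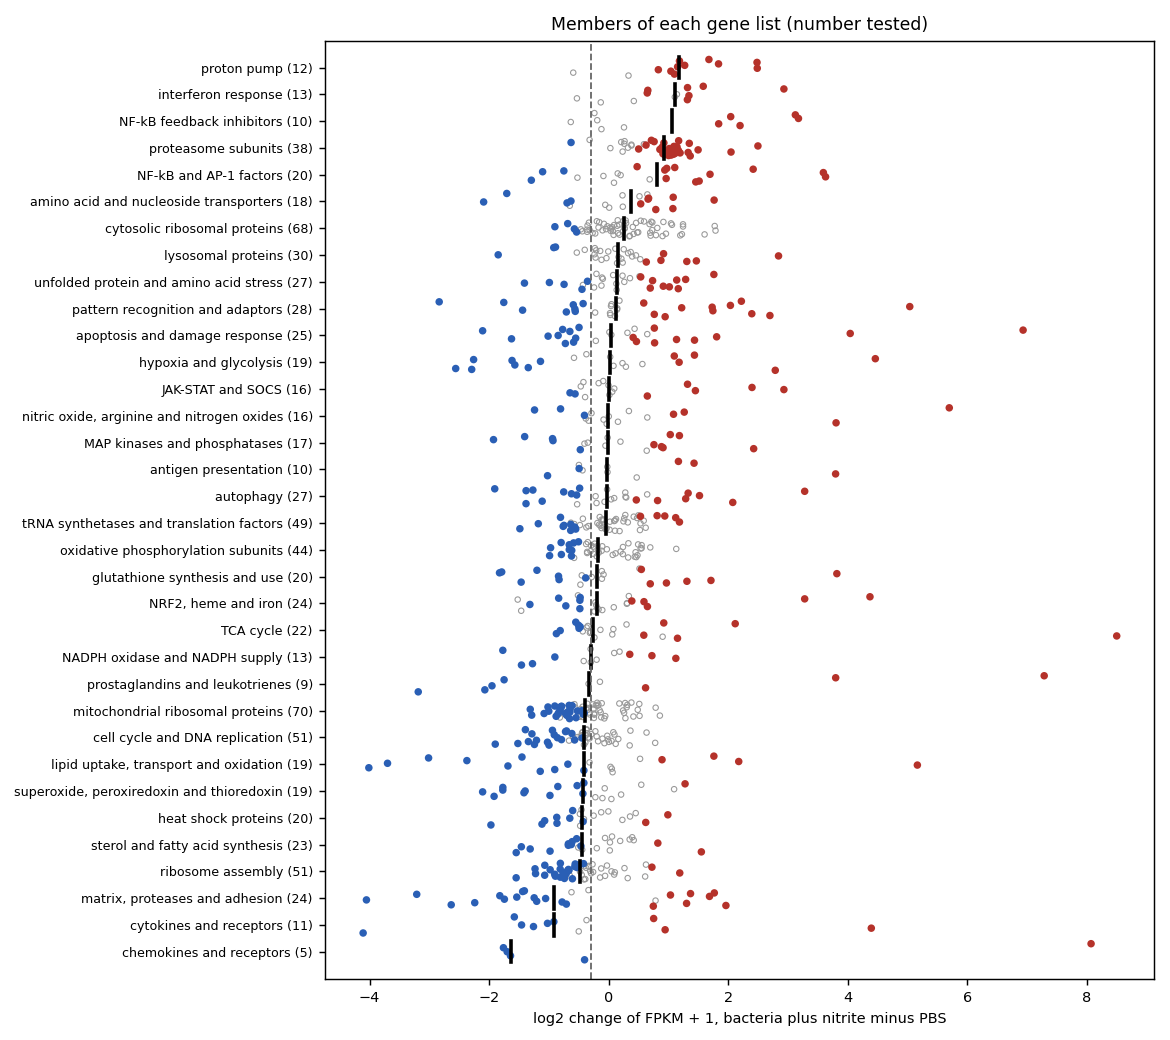
Log2 change of every tested member of the 34 gene lists, with the number tested after each name. Filled points passed the limma test (red higher, blue lower), open points did not, black bars are list medians and the dashed line is the median of all genes (-0.29). The proton pump has the highest median (1.17) and chemokines and receptors the lowest (-1.64).

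The vacuolar proton pump acidifies phagosomes and lysosomes. Of its 12 tested subunits, 10 rose, 9 under all 3 scalings, and none fell, with a median of 1.17. atp6v1a, the subunit that binds ATP, went from 42.2, 70.5 and 78.7 to 347, 347 and 355 FPKM (2.48 ± 0.20), and atp6v1e1, a stalk subunit, from 106, 141 and 191 to 438, 487 and 621 FPKM (1.84 ± 0.14). The 3 co-treated values of atp6v1a were close together, and the groups were apart in both. The cytosolic subunits atp6v1f (2.48), atp6v1h (1.68), atp6v1d (1.27), atp6v1g1 (1.18) and atp6v1c1 (1.15) rose with the membrane subunits atp6v0b (1.04) and atp6v0e1 (0.83) and the accessory atp6ap2 (1.10). atp6v0a2 (-0.59 ± 0.24) and atp6ap1 (0.33 ± 0.14) did not pass, but both did without PBS replicate 3 (-0.82 and 0.43), and atp6v1f did not without co-treatment replicate 1 (2.02).

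Most lysosomal proteins were not called. Of 30 lysosomal proteins 6 rose and 3 fell (4 and 3 under all 3 scalings, 15 rises with median-ratio scaling). gns, which removes sulfate from heparan chains, rose from 27.4, 25.8 and 38.8 to 171, 231 and 278 FPKM (2.84 ± 0.16), while ids, another sulfatase of the same route, fell from 34.5, 30.7 and 24.6 to 5.54, 8.88 and 8.53 FPKM (-1.85 ± 0.20). Those groups did not overlap. ctsc (0.87), which activates granule proteases, and lamp1 (0.92) rose as well.

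Autophagy genes moved in both directions. sqstm1, the cargo receptor p62, went from 18.0, 280.1 and 225 to 993, 1209 and 916 FPKM (3.28 ± 0.71), and its PBS replicate 1 lay far under the other PBS libraries. Without that library its change was 2.05. gabarap (1.52), atg4d (1.29) and the receptor optn (1.33) rose. The initiating kinase ulk1 (-1.38), its partner atg13 (-1.38) and wipi1 (-1.91) fell. In all 7 of 27 rose (25.9%, against 15.5% of all genes) and 9 fell (33.3%, under the 38.7% of all genes). Under all 3 scalings 7 rose and 5 fell, and 4 fell without co-treatment replicate 1.

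The proteasome degrades ubiquitin-tagged proteins and cuts peptides for presentation. 27 of its 38 tested subunits and assembly factors rose, 23 under all 3 scalings, and 1 fell, with a median of 0.93. Without the pairing by replicate number 16 rose, and 20 rose with only the 6 PBS and co-treated libraries. psmb1, a subunit of the catalytic ring, went from 87.0, 101 and 143 to 190.3, 254 and 265 FPKM (1.11 ± 0.17), and psme1, part of the activator induced by interferon, from 77.9, 141 and 180.1 to 266, 334 and 373 FPKM (1.35 ± 0.18). Both had groups that did not overlap, and within each group replicate 1 was lowest and replicate 3 highest. psmb4, of the same ring as psmb1, rose by 2.05 ± 0.73. psme3, a nuclear activator, was the member that fell (-0.63 ± 0.18), and it did not pass without co-treatment replicate 1 (-0.50).

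The 3 genes of glutathione synthesis rose. gclc and gclm, the catalytic and modifier subunits of glutamate-cysteine ligase, the rate-limiting enzyme, went from 18.7, 27.6 and 25.7 to 43.9, 85.5 and 57.7 FPKM (1.31 ± 0.17) and from 18.3, 21.2 and 24.3 to 63.5, 83.5 and 68.8 FPKM (1.71 ± 0.15). gss, the synthetase of the second step, went from 23.5, 23.6 and 47.2 to 511, 546 and 289 FPKM (3.82 ± 0.39). In each of the 3 genes every co-treated library lay above every PBS library, and all 3 were called in each of the 22 alternatives. chac2, which breaks glutathione down, rose by 0.96. chac1 (0.69), of the same family, and the microsomal transferase mgst3 (0.55) rose too, but neither passed without co-treatment replicate 1. Among the falls were gstk1 (-1.83), gstz1 (-1.79), mgst2 (-1.20) and esd (-1.47), enzymes that use glutathione. gsr, which regenerates glutathione, changed by -0.09 ± 0.23 and did not pass. Over the list, 6 of 20 rose and 7 fell (35.0%, against 38.7% of all genes), 5 and 4 under all 3 scalings.

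Heme oxygenase, hmox1, which degrades heme and is a common target of the oxidant sensor NRF2, went the other way. It stood at 824, 784 and 703 FPKM with PBS and 344, 535 and 158 with both agents, a change of -1.32 ± 0.27 (limma adjusted p = 0.00304). The co-treated values were spread over a wide range that stayed under all PBS values. steap4, a metalloreductase that reduces iron and copper, rose from 1.24, 0.31 and 1.21 to 56.6, 30.1 and 31.1 FPKM (4.37 ± 0.24). fech, the last enzyme of heme synthesis, fell (-0.72 ± 0.15). rhag, a membrane protein of red cells and the 1 erythroid marker tested, fell from 18.9, 16.1 and 7.47 to 2.48, 1.89 and 1.29 FPKM (-2.32 ± 0.21), and its part in the heme genes was not tested. Of 24 members 5 rose (20.8%, against 15.5% of all genes) and 6 fell (25.0%, under the 38.7% of all genes). Under all 3 scalings 4 rose and 2 fell, and 3 and 3 without the pairing. Leaving out PBS replicate 1 gave 10 falls, leaving out co-treatment replicate 1 or bacteria replicate 2 gave 3, and leaving out PBS replicate 2 or co-treatment replicate 2 gave 3 rises.

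Enzymes against superoxide and peroxide fell in 11 of 19 cases and rose in 1, 8 and 1 under all 3 scalings. sod2, the mitochondrial superoxide dismutase, went from 26.6, 22.1 and 26.7 to 3.81, 7.88 and 9.33 FPKM (-1.77 ± 0.22), and prdx5, a peroxiredoxin, from 114, 95.3 and 95.1 to 32.4, 40.2 and 39.6 FPKM (-1.42 ± 0.16). Neither had overlapping groups. The cytosolic dismutase sod1 (-1.40), the stress sensor park7 (-0.98), oxr1 (-1.92) and the p53 target sesn1 (-2.11) fell.

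NADPH oxidase makes the respiratory burst. ncf1, a cytosolic subunit, rose from 161, 189.6 and 225 to 331, 275 and 340.2 FPKM (0.72 ± 0.16). hvcn1, the proton channel that balances the charge of the burst, fell (-1.28 ± 0.24) with overlapping groups. Of the enzymes that supply NADPH, rpia (-1.77) and h6pd (-1.46) fell, and pgd (0.09 ± 0.30) did not pass. In all, 3 of 13 rose (23.1%, against 15.5% of all genes) and 4 fell (30.8%, under the 38.7% of all genes). Under all 3 scalings 2 rose and 3 fell. Only 1 rose without PBS replicate 2, co-treatment replicate 1, co-treatment replicate 2 or the pairing.

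**Figure D3:**
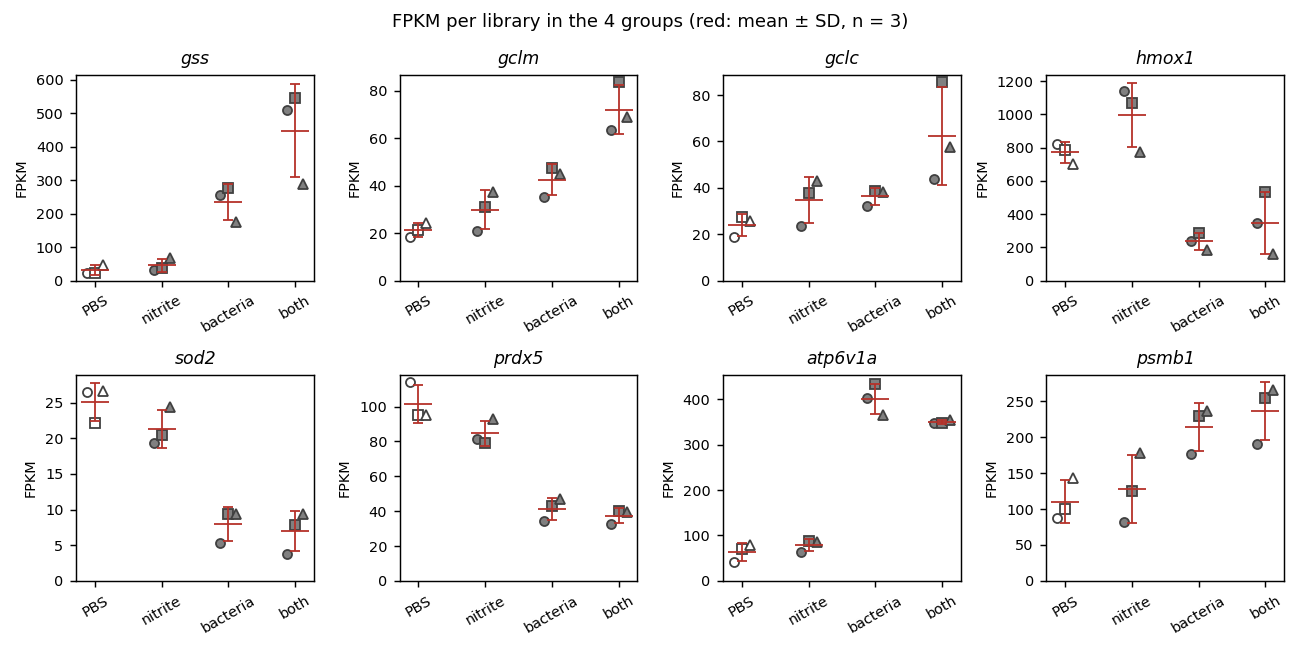
FPKM per library of gss, gclm, gclc, hmox1, sod2, prdx5, atp6v1a and psmb1 in the 4 groups (symbols: circle, replicate 1; square, replicate 2; triangle, replicate 3; red: mean ± SD, n = 3), each on an axis from 0. The co-treated gclm libraries lie at 63.5, 83.5 and 68.8 FPKM and the bacteria libraries at 35.3, 47.3 and 45.0, and hmox1 is at 1138, 1070.1 and 775 FPKM with nitrite alone.

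Arginine is the substrate of nitric oxide synthase and of arginase. arg2, the mitochondrial arginase, went from 15.8, 21.4 and 46.1 to 490.2, 285 and 342 FPKM (3.80 ± 0.46), with no overlap. In polyamine metabolism downstream of it, sat1, which acetylates polyamines, rose by 1.26 ± 0.29, and sms, spermine synthase, fell (-1.24 ± 0.26). With suox, one of the 15 largest rises, 4 of 16 list members rose (25.0%, against 15.5% of all genes). 3 fell (18.8%, under the 38.7% of all genes), and 4 rose and 1 fell under all 3 scalings. Only 1 fell without PBS replicate 3, co-treatment replicate 1, co-treatment replicate 3 or the pairing. nosip, a partner of nitric oxide synthase, changed by 0.00 ± 0.20.

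In glucose metabolism, pfkfb3, which makes the activator of phosphofructokinase, went from 2.27, 5.02 and 25.5 to 180.4, 105 and 289 FPKM (4.46 ± 0.51). Its values differed several-fold within the PBS group but stayed under every co-treated library. The peptide hormone adm (2.79), vegfa (1.43), hk1 (1.18) and pkm (1.10) rose. The pyruvate dehydrogenase kinases pdk1 (-1.14), pdk3 (-1.62) and pdk4 (-2.26) fell, with ddit4 (-2.56), an inhibitor of mTORC1, and bnip3 (-2.29), a mitophagy receptor. The hydroxylase egln1, an oxygen sensor, fell from 13.6, 12.8 and 11.9 to 3.56, 5.34 and 4.48 FPKM (-1.35 ± 0.14). 5 of 19 members rose (26.3%, against 15.5% of all genes) and 7 fell (36.8%, near the 38.7% of all genes), all of them under all 3 scalings.

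Of the TCA cycle, 5 of 22 members rose (22.7%, against 15.5% of all genes) and 6 fell (27.3%, under the 38.7% of all genes). Under all 3 scalings 4 rose and 1 fell. Besides acod1, sucla2 (2.12 ± 0.12) and suclg1 (0.92 ± 0.13), a subunit pair of succinyl-CoA ligase, and acly (1.15), which splits citrate to supply carbon for fatty acids, rose. sucla2 went from 19.7, 18.9 and 25.6 to 86.6, 79.5 and 126 FPKM with no overlap. idh3g (-0.81) and dld (-0.88) fell. Without PBS replicate 1 the falls numbered 11, without co-treatment replicate 1 they numbered 3, and without the pairing 1.

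Of 19 genes of lipid uptake, transport and oxidation 4 rose and 10 fell (52.6%, against 38.7% of all genes), 4 and 8 under all 3 scalings. rxra, the partner of many nuclear receptors, went from 23.9, 18.9 and 9.52 to 1.39, 1.41 and 0.71 FPKM (-3.01 ± 0.23). fabp3 (-1.69), the phospholipid carrier pltp (-2.37) and the lipoprotein receptor scarb1 (-1.45) fell alongside lpl and apoa4, whereas vldlr (1.76), a lipoprotein receptor, rose with fabp7. In sterol and fatty acid synthesis 10 of 23 fell (43.5%) and 2 rose, 3 and 2 under all 3 scalings. Rises outnumbered falls there with the other scalings, 5 against 3 with median-ratio and 6 against 5 with quantile. There were 6 falls without co-treatment replicate 1 and 4 with only the 6 PBS and co-treated libraries. fdft1, which commits carbon to sterols, fell (-1.46 ± 0.18) and acacb, an acetyl-CoA carboxylase, did too (-1.55 ± 0.14).

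Eicosanoid genes moved in both directions. ptgs2, the inducible cyclooxygenase that starts prostaglandin synthesis, went from 2.91, 2.40 and 3.55 to 66.4, 45.0 and 51.4 FPKM (3.80 ± 0.18). alox5, which starts leukotriene synthesis, went from 695, 374 and 297 to 76.7, 43.4 and 28.8 FPKM (-3.19 ± 0.16), and its helper alox5ap fell (-2.07). Neither gene had overlapping groups. ptges, a prostaglandin E synthase, fell (-1.95 ± 0.20), and ptgir, the prostacyclin receptor, changed by -0.15 ± 0.16 and did not pass. With slco2a1 and pla2g4a (0.62), 3 of 9 rose (33.3%, against 15.5% of all genes) and 4 fell (44.4%, against 38.7%), all under all 3 scalings.

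Among genes of apoptosis and DNA damage 9 of 25 rose and 10 fell, 9 and 5 under all 3 scalings, and 5 fell without the pairing. gadd45b, a stress protein, went from 11.9, 23.4 and 24.4 to 299, 408 and 289 FPKM (4.04 ± 0.21). casp9, the initiator caspase of the mitochondrial route, went from 34.2, 29.2 and 41.4 to 145, 95.2 and 136 FPKM (1.80 ± 0.19), and its activator apaf1 rose by 0.77. bcl2l1 (1.43) and xiap (0.76), which oppose caspase activation, rose as well. The list also held tp53i3 among its rises, and ccng1 (-1.01), ddb2 (-0.85) and xpc (-0.50) fell.

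In the unfolded protein and amino acid stress list 9 of 27 rose and 5 fell, 6 and 2 under all 3 scalings and 5 and 3 without the pairing. The sensor atf6 (1.16 ± 0.21), the chaperone dnajb9 (0.91 ± 0.14), the stress factor ddit3 (1.01 ± 0.19) and the serine synthesis enzyme psat1 (1.29) rose, and eif2ak4, which senses amino acid shortage, fell (-1.41 ± 0.18). Without co-treatment replicate 1, 2 members fell, and 3 fell without PBS replicate 3, nitrite replicate 2, co-treatment replicate 2 or 3, or any 1 bacteria library. The heat shock list had 2 rises and 8 falls among 20 members, 2 and 4 under all 3 scalings. bag2 and bag3, cochaperones of Hsp70, fell (-1.97 ± 0.26 and -1.12 ± 0.21). Leaving out PBS replicate 1 gave 5 rises and leaving out co-treatment replicate 1 gave 4 falls.

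Matrix and adhesion genes fell in 14 of 24 cases and rose in 7, 12 and 7 under all 3 scalings, and 4 rose without the pairing. mmp2, a gelatinase of resting tissue, went from 45.9, 39.1 and 35.4 to 2.86, 3.39 and 4.06 FPKM (-3.21 ± 0.23), while mmp9, the gelatinase of neutrophils, rose from 137, 202 and 285 to 276, 682 and 728 FPKM (1.37 ± 0.20). The mmp9 groups overlapped, because co-treatment replicate 1 lay under PBS replicate 3, although each pair rose. mmp13 (1.69), the protease adamts1 (1.30) and the plasminogen activator plau (1.77) rose. The integrins itga1 (-2.24), itgav (-1.75), itgb5 (-1.54), itgb3 (-1.25) and itgb1 (-1.06) fell with itga6. Of the 18 amino acid and nucleoside transporters 7 rose and 4 fell, 5 and 2 under all 3 scalings, with slc6a15 (1.76 ± 0.24) and the nucleoside carrier slc29a3 (1.07 ± 0.15) rising and slc43a3 (-2.09 ± 0.16) and slc7a8 (-1.71 ± 0.24) falling. Without the pairing 3 rose and 2 fell. Without PBS replicate 2 or co-treatment replicate 2, 4 of them rose, and without co-treatment replicate 1 or 3, 2 fell.

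Growth-related lists depended on the pair. In cytosolic ribosomal proteins the median paired difference was 1.81 in pair 1, -0.74 in pair 2 and -0.29 in pair 3, and 4 of 68 fell, 0 of them under all 3 scalings. Without PBS replicate 1, the library with the low ribosomal share, 64 fell, while 1 fell without PBS replicate 2, 2 fell without the pairing and none fell without co-treatment replicate 1 or 2. Subunits of oxidative phosphorylation had medians of 0.48, -0.47 and -0.56 in the 3 pairs, and 10 of 44 fell, 3 under all 3 scalings, against 32 without PBS replicate 1 and 6 without the pairing. Neither list had a member that rose. rpl9 shows the pattern, with 374, 1588 and 1497 FPKM in the PBS libraries and 809, 939 and 1222 in the co-treated ones (0.02 ± 0.38, not passing). Without PBS replicate 1 its change was -0.56 and passed. In these lists and those that follow, the part of PBS replicate 1 in the result was not tested beyond these values.

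**Figure D4:**
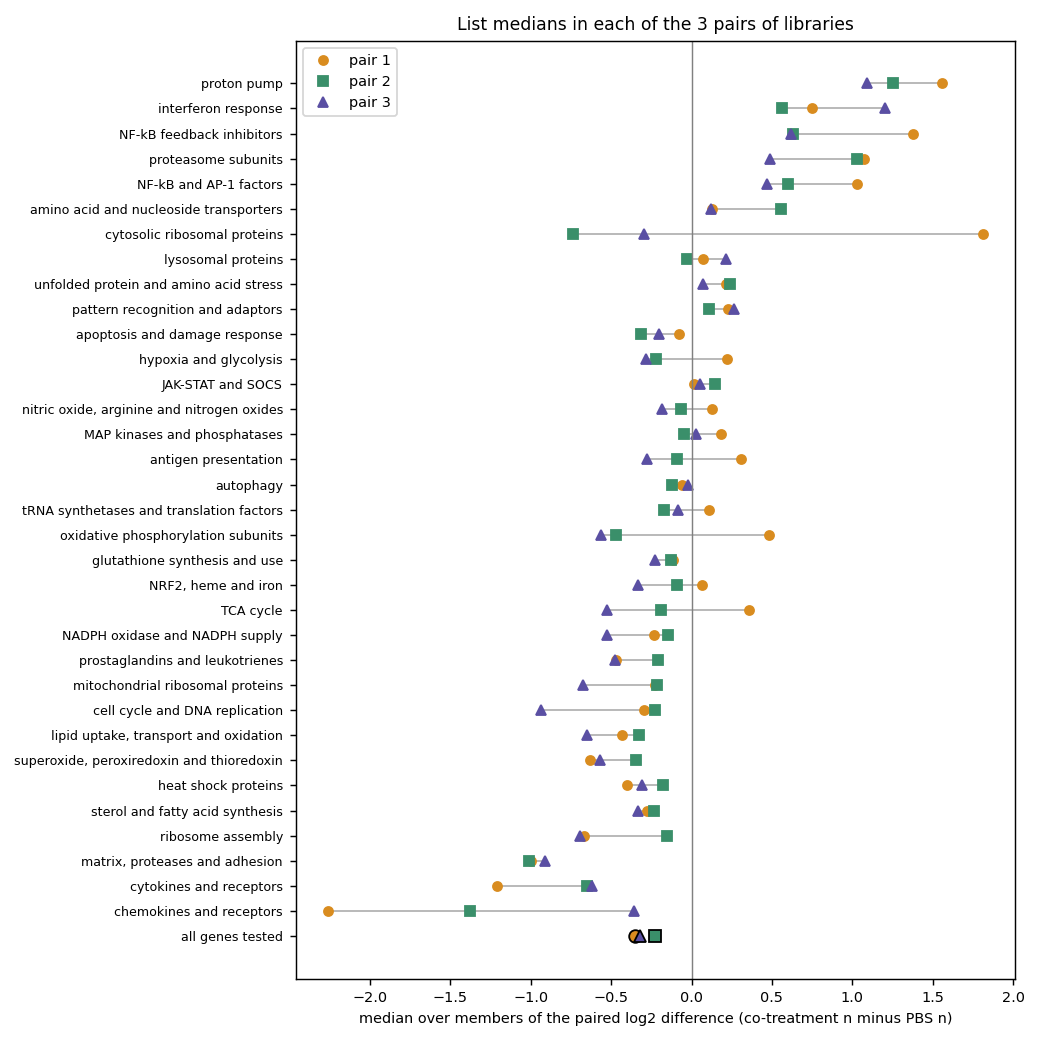
Median over the members of each list of the paired log2 difference (co-treatment n minus PBS n), in the 3 pairs of libraries, with the same for all genes at the bottom. Each symbol is a pair and grey lines join the lowest and highest. Cytosolic ribosomal proteins are spread from -0.74 to 1.81, and the proton pump and the proteasome are above 0 in each pair.

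In ribosome assembly 25 of 51 fell (49.0%, against 38.7% of all genes) and 2 rose, 7 and 2 under all 3 scalings. Without the pairing 6 fell, and 9, 14 and 15 fell without co-treatment replicate 1, co-treatment replicate 3 and PBS replicate 3. With only the 6 PBS and co-treated libraries 7 fell. ddx21, a nucleolar helicase, went from 264, 188 and 133 to 50.9, 65.0 and 77.3 FPKM (-1.55 ± 0.29) with no overlap, and nop56, of the complex that methylates ribosomal RNA, fell (-0.98 ± 0.17) with overlapping groups. Mitochondrial ribosomal proteins fell in 26 of 70 cases (37.1%, near the share of all genes), 6 under all 3 scalings. There were 9 falls without the pairing, 14 without co-treatment replicate 1 and 5 with only the 6 PBS and co-treated libraries. tRNA synthetases and translation factors were split, with 5 of 49 higher and 9 lower, 4 and 4 under all 3 scalings. Without the pairing 1 rose and 5 fell, without PBS replicate 1 there were 17 falls, and without co-treatment replicate 1 there were 2 rises. eif4g2, an initiation factor for stressed cells, rose by 1.18 ± 0.20, and eef2, the elongation factor, fell (-1.49 ± 0.28).

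Cell cycle genes fell in 18 of 51 cases (35.3%, near the 38.7% of all genes) and rose in none, 11 of the falls under all 3 scalings, 9 without the pairing and 26 without PBS replicate 1. The members with a positive paired difference numbered 23 in pair 1, 14 in pair 2 and 0 in pair 3. ccnb3, a cyclin of mitosis, went from 6.82, 15.3 and 14.9 to 0.96, 3.56 and 3.38 FPKM (-1.90 ± 0.23), and e2f1, which drives entry into S phase, from 8.99, 7.47 and 9.20 to 2.92, 3.24 and 3.20 FPKM (-1.21 ± 0.15). top2a, which untangles chromosomes, fell (-0.94 ± 0.14), and these 3 genes had no overlap between groups. The kinase cdk4 (0.00 ± 0.22) did not pass.

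Markers of cell types were read beside these changes, and their part in the results was not tested. Marker transcripts listed for granulocytes, macrophages, lymphocytes, thrombocytes and progenitors were detected in all PBS libraries. Those listed for lymphocytes were mostly btk and granzyme, which are not shown here to come from lymphocytes. The summed neutrophil markers ran from 661 to 813 FPKM with PBS and from 920 to 1380 with both agents, and 4 of 5 rose, 3 under all 3 scalings (2 without the pairing). Among the 4 were mmp9, mmp13 and ncf1, and mmp9 and ncf1, with the values given above, made up most of the rise of the sum. The remaining marker did not pass. It fell with quantile normalization, without PBS replicate 2 and without nitrite replicate 1 or 3. Summed eosinophil and mast cell markers went from 5830 to 7560 FPKM down to 870 to 1280, of which epx was most with PBS, while fcer1g (0.19 ± 0.19) did not pass. The macrophage sum was 238 to 421 FPKM with PBS and 230 to 391 with both agents, so the ranges overlapped. Of 3 tested macrophage markers, csf1r and marco fell, 1 of them under all 3 scalings, and irf8 (1.14 ± 0.46) did not pass but did without PBS replicate 1 (1.56). All 6 progenitor markers fell, 3 of them under all 3 scalings and 3 without co-treatment replicate 1 or 2. cebpa, the master factor of granulocyte precursors, went from 194, 263 and 154 to 51.9, 79.0 and 58.5 FPKM (-1.66 ± 0.22), and myb, a factor of blood-forming cells, from 26.9, 25.5 and 20.8 to 8.01, 6.68 and 6.58 FPKM (-1.65 ± 0.14).

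The summed B cell markers were 117 to 208 FPKM with PBS and 32.9 to 49.0 with both agents, and 2 of 5 fell, 2 under all 3 scalings. Most of this sum was btk, a kinase of B cells and of myeloid cells. It fell from 144, 109 and 83.8 to 22.9, 28.4 and 25.6 FPKM (-2.06 ± 0.22), while the B cell receptor chains cd79a (-0.48 ± 0.30) and cd79b (-0.59 ± 0.37) did not pass. The T cell kinases itk and lck were under 4 FPKM in every PBS and co-treated library and changed by -0.32 ± 0.15 and 0.01 ± 0.16, so the T and NK cell sum, 629 to 1960 FPKM with PBS and 28.7 to 75.1 with both agents, was almost all granzyme. Thrombocyte markers fell in 4 of 5 cases (80.0%, against 38.7% of all genes), all under all 3 scalings, with a sum of 106 to 210 FPKM against 70.0 to 95.0. The 1 other thrombocyte marker had a positive change that did not pass. It rose with median-ratio scaling and with quantile normalization. It also rose without PBS replicate 1, without nitrite replicate 1 and without all libraries numbered 1. The organ also holds fibroblasts, endothelium, interrenal cells and kidney tubules. The sum of 8 fibroblast markers was 46.9 to 74.3 FPKM with PBS and 15.8 to 22.7 with both agents, with 4 markers listed at 0 in each group. The 2 that passed the filter on low values fell, pdgfrb (-2.33 ± 0.20) and tagln (-1.32 ± 0.21). The sum of 7 endothelial markers was 4.77 to 25.0 FPKM with PBS and 30.7 to 85.0 with both agents, where flt1 made up most of it, while stab1 (-2.71 ± 0.35) and stab2 (-0.92 ± 0.22), scavenger receptors of sinusoids, fell. The tubule sum was 1.86 to 4.79 FPKM with PBS and 0.38 to 0.66 with both agents, and 4 of its 7 markers were listed at 0 in the co-treated group. The interrenal sum was 0.66 to 4.69 and 0.30 to 0.81 FPKM.

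Whether the joint effect differed from the sum of the single effects on the log2 scale was tested by the interaction. It is the change with nitrite in the presence of bacteria minus the change with nitrite alone. Co-treatment was not set against nitrite alone. Of the 12423 genes 1 was called (0.00805%), and 192 had an unadjusted p under 0.05 (50 without the pairing). Such a threshold lets through a 0.05 share of genes when nothing differs, and both counts are under that share. Against the same PBS libraries, bacteria alone changed 6634 genes (53.4%) and nitrite alone changed 0 (0.0%) by limma. For nitrite 489 genes had an unadjusted p under 0.05, again under that share, and the counts were 0 and 74 without the pairing. Because the comparisons with PBS share the PBS libraries, only their own values are set side by side. acod1 changed by 9.07 ± 0.34 with bacteria, 0.49 ± 0.34 with nitrite and 8.50 ± 0.34 with both. For il-8 the values were 8.28 ± 0.67, 0.02 ± 0.67 and 8.07 ± 0.67, and for epx -5.58 ± 0.33, -0.09 ± 0.33 and -6.12 ± 0.33. In each of these genes the joint value lay within 1 unit of the value for bacteria, and none of the nitrite values passed. 

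Co-treatment set directly against bacteria, which asks what nitrite added to bacteria, called 4 genes (0.0322%), 3 higher (0.0241%) and 1 lower (0.00805%), none of them with a name. Without the pairing 1 gene was called. The 1 lower gene was LOC100692258, listed at 0 in all co-treated libraries and described below, where its 0 is said to be possibly a failed estimate. The glutathione synthesis genes did not pass in this comparison with bacteria. gclm libraries stood at 35.3, 47.3 and 45.0 FPKM with bacteria and at 21.1, 31.0 and 37.4 with nitrite, and co-treatment differed from bacteria by 0.75 ± 0.15 (limma adjusted p = 0.394). The difference was 0.72 ± 0.17 for gclc and 0.90 ± 0.39 for gss. Every co-treated library of these 3 genes lay above the bacteria library of the same number. How many of all genes did so was not counted, so nothing is read from that agreement. The interaction estimates of the 3 genes were 0.31 ± 0.21, 0.23 ± 0.24 and 0.36 ± 0.55. f3, tissue factor, which starts coagulation, had one of the 10 smallest interaction p-values among genes averaging 5 FPKM or more in a group. It was at 2.82, 3.81 and 3.97 FPKM with PBS, 1.36, 3.49 and 2.70 with nitrite, 5.15, 7.20 and 12.7 with bacteria and 10.8, 13.7 and 22.4 with both, and its interaction of 1.26 ± 0.30 did not pass after adjustment (limma adjusted p = 0.963).

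**Figure D5:**
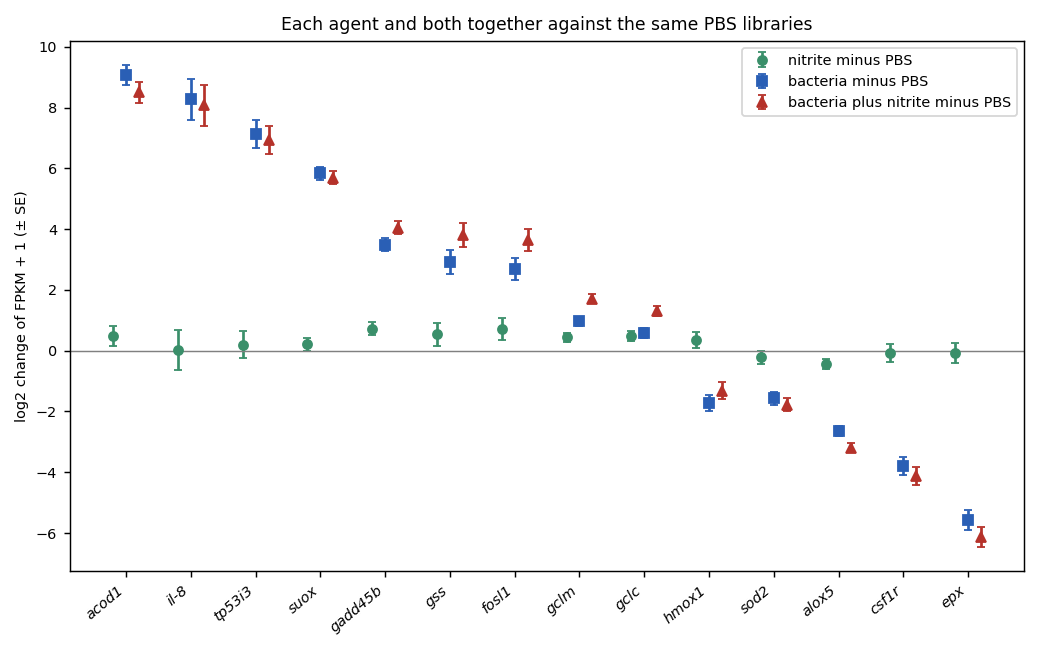
Log2 change of FPKM + 1 against the same 3 PBS libraries for nitrite (circles), bacteria (squares) and both agents (triangles), with SE from the limma fit, for 14 genes described above. The nitrite points lie between -0.44 and 0.73, the bacteria points are nearer to the joint points than to 0 in acod1 and epx, and gclm is at 0.44 ± 0.15, 0.96 ± 0.15 and 1.71 ± 0.15.

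The single gene called in the interaction was LOC100692258, an unnamed identifier with 1 transcript. It was at 9527, 7295 and 8120.2 FPKM with PBS, 17476, 20799 and 18949.5 with bacteria and 10335, 9187 and 9558 with nitrite, and was listed at 0 in all 3 co-treated libraries. The table held no other gene listed at 0 in a whole group with at least 5 FPKM in the other 9 libraries. An exact 0 in such a table can be a failed estimate, and how reads shared by similar copies were counted is not given in the sources used here, so no fold change is given.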

How the data were processed

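Leukocyte RNA was sequenced in 12 libraries, 3 in each of 4 groups. The authors deposited FPKM values for 58070 transcripts under 28921 gene symbols. Per the submitters' processing notes the tools were Trimmomatic 0.30, HISAT2 2.0.1 and HTSeq 0.6.1. Build, annotation and the program behind the FPKM: not given in the sources used here. Absolute depth is unknown because the table has no counts. The steps between low values put the deepest library at about 1.43 times the depth of PBS replicate 1, the shallowest.

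Transcripts were summed per symbol, symbols averaging 1 FPKM or more were kept, and log2(FPKM + 1) was fitted over all 12 libraries with limma 3.58.1 in R 4.3.3 (mean-variance trend, 6 residual degrees of freedom), with the replicate number as a block and Benjamini-Hochberg adjustment at 0.05. The code was tested on simulated data. Replicate numbers come from the sample titles. In 18 pairs of libraries with a shared number, deviations from the group mean correlated at 0.416 to 0.919 across genes. On the positive values of these 18 pairs the numbers were taken to pair the libraries. In 36 pairs with different numbers the correlation was -0.684 to -0.0044. Deviations sum to 0 within a group, so these negative values follow from the positive ones on average and are no separate evidence. An exact permutation test was used for the number of genes detected.

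The comparison, the 34 pathway lists, the 12 marker lists and the tests were chosen with earlier results of these data known. Lists were matched by symbol, 6 symbols caught by mistake were removed by name, and a further list, of complement and acute phase genes, had no tested member and is not described. The rule for named genes takes the 15 largest rises and 15 largest falls among named genes that passed with no overlap and at least 5 FPKM in the higher group, in every list the 4 smallest p-values at most and the largest, the 10 smallest interaction p-values and a fixed panel. Some genes are not reported here, and the text leaves out many others, among them some whose calls changed between alternatives. List members given only by their log2 change, and identifiers without a name, were in part chosen after their values were seen. Alternatives were other pseudocounts (0.1 and 3), filters and scalings, the highest transcript per symbol, the fit without the block, the 6 libraries alone and each library left out. Leaving out all libraries numbered 1 was added after the data were seen.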

Additional observations from a re-analysis of the deposited data

Results flagged for a closer look

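LOC100692258 was the single gene called in the test of whether the difference with nitrite was the same with and without bacteria (interaction, limma adjusted p = 6.32e-09 over 12423 genes). Its co-treated libraries are all listed at 0, and the 9 libraries of the other groups lie between 7295 and 20799 FPKM. With these 0 values the direction had to be the same in 3 of 3 replicate numbers, so that agreement adds no support. An exact 0 in this table can be a failed estimate, so the p-value describes the deposited values and no response to nitrite is read from it.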

How the results depend on the processing

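The count of 6739 genes called in co-treatment against PBS stayed within 1.5 times its value under 20 of the 22 alternatives. It was 4016 with only the 6 PBS and co-treated libraries, where 2 residual degrees of freedom remain. Every other fit also drew its spread from the bacteria and nitrite libraries, and many list counts were lower with the 6 libraries alone. The count was 4442 with a mean of at least 5 FPKM, where 8263 genes were tested. Leaving out each library in turn gave 5002 (without co-treatment replicate 1) to 7470 (without PBS replicate 1). Without the replicate block 4848 genes were called, all of them among the 6739. The interaction called 1 gene with and without the block and in each alternative run, and it cannot be had from 2 groups alone. With median-ratio scaling 50.1% of calls were rises and with quantile normalization 45.5%, against 28.7% as deposited, and no shared call changed sign.

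Of 222 genes named in the text 189 kept their side of the threshold and their direction in each alternative that tested them. The other 33 changed in 1 or more alternatives, and only some of these are marked where they are named. rpl9 changed direction: leaving out a library gave -0.56 (without PBS replicate 1) to 0.40 (without PBS replicate 2), and leaving out all libraries numbered 1 gave -0.53. The cause was not tested.

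The depth behind each value is unknown, 3 libraries a group limit the precision, and the table does not show how reads of similar gene copies were shared. Fitted changes of genes near 0 FPKM depend on the pseudocount.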
